A study of Mus musculus with 8 samples.

Results

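The semaphorins, their plexin and neuropilin receptors, and the ephrins with their Eph receptors were examined in mouse embryoid bodies with and without an added Hedgehog (Hh) agonist. Members were taken by gene name, as every non-control probe set whose platform annotation names 1 of 50 listed genes and no other. This gave 120 of the 45101 probe sets on the array, for 49 of the 50 genes. No single-gene probe set named Ephb2, which was not analysed here.

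Semaphorins are secreted or membrane-bound proteins that steer growing axons and migrating cells, mostly by repulsion. They act through plexins, which collapse the growth cone by way of small GTPases, and most of the secreted class 3 semaphorins bind a neuropilin that in turn recruits a plexin of the A group. Ephrins are held at the membrane and bind Eph receptor tyrosine kinases on neighbouring cells, signalling into both cells. In the embryonic hindbrain and spinal cord both systems guide motor and commissural axons and keep cell territories apart.

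The cells of 4 samples received 500 nM retinoic acid and 1 uM of an Hh agonist named HH-Ag in the labels, and those of another 4 received 500 nM retinoic acid alone. Treatment began after 2 days in suspension, and embryonic stem cells grown this way with retinoic acid become neural, with the identity of hindbrain and spinal cord. For 7 of the 8 samples the labels name YFP3.1 cells, which constitutively express a FLAG-tagged Gli1, a transcription factor of the Hh pathway, in both groups, and give 3 days of differentiation. For replicate 7 of the agonist group the labels give neither the line nor the time. The design calls the samples biological replicates without describing separate cultures. The p-values therefore reflect no more than the scatter among these 8 samples, part of which may be technical. Each was hybridised to 1 Affymetrix Mouse430_2 array, read as a linear intensity per probe set, and precision is limited by the small number of arrays.

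The arrays were nearly level, with median intensities of 21.7 to 22.6 in the agonist group and 21.6 to 22.01 in the retinoic acid group. The neural progenitor genes Sox2, Sox3 and Nes were bright enough to be tested and did not pass. They had 264 to 322 against 286 to 380 for Sox2, 51.5 to 67.9 against 46.5 to 61.9 for Sox3 and 264 to 275 against 235 to 289 for Nes, while Sox1 was too dim to be tested. Of 9 neural progenitor markers tested 2, Fabp7 and Vim, rose and 1, Pax6, fell. Pax6 had 11.6 ± 3.58 with the agonist and 41.3 ± 5.71 with retinoic acid alone. Its agonist mean lay under the filter level of about 15.1, so that it was tested only through the retinoic acid arrays. Fabp7 had 51.1 ± 5.67 and 24.6 ± 4.27, and Vim, the largest part of the list's sum, 1834 ± 59.9 and 1588 ± 87.3. The sums of this list were 2703 to 2919 against 2424 to 2704. Of 6 hindbrain and spinal cord markers 2 rose, with sums of 630 to 688 against 501 to 627. Of 12 neuron markers 11 were tested and 9 rose with the agonist, and their summed intensity was 2722 to 2901 in the agonist group, against 1038 to 1184 in the retinoic acid group. None of 6 blood and endothelial, 5 mesoderm, 5 endoderm and 4 neural crest markers tested passed, and the summed intensities of these lists overlapped between the groups, at 323 to 371 against 316 to 412, 214 to 241 against 222 to 242, 159 to 192 against 154 to 190 and 130 to 201 against 142 to 165. Of 8 pluripotency markers 1 fell, with sums of 956 to 1132 against 1017 to 1335. Each sum is over every gene of its list with a probe set, including genes too dim to be tested. Arrays of both groups were hybridised on each of 2 days, and on the second day the agonist arrays ran on another fluidics station than the retinoic acid arrays, so that station and group cannot be told apart on that day.

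The comparison asks which guidance genes differ when the Hh agonist is added to retinoic acid. The labelled cells of both groups already expressed a Gli1, so the retinoic acid group need not be free of Hh pathway activity. With the agonist, a probe set of Sema3e, a secreted repellent, was lower, while a probe set of Nrp1, a class 3 semaphorin receptor, and a pair of probe sets of Plxna2, its signalling partner, were higher. No semaphorin of another class, no ephrin and no Eph receptor passed the test by any probe set. Differences are on the scale of log2(intensity + 16), with the agonist group minus the retinoic acid group. Fold values are these differences taken out of the logarithm, so they are ratios of intensity + 16 and smaller than the ratios of the mean intensities printed beside them. A probe set passed with an adjusted p under 0.05 in limma, adjusted over all 27022 probe sets tested.

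Of the 120 probe sets of these families 69 were bright enough to be tested, above an intensity of about 15.1 on average. Of these 69, 3 were higher and 1 was lower, or 5.80% in all, against 1.14% higher, 0.733% lower and 1.87% in all among every probe set tested. Taking for each gene its brightest probe set, chosen by its mean over all 8 arrays, 42 genes were tested and 1, Sema3e, passed, a share of 2.38% that lies near the 2.18% of all 13675 genes tested. Counting a gene as called where any of its probe sets passed gave 3 of 42 genes, against 2.61% of all genes, with 1.64 tested probe sets per member gene and 1.63 per gene overall. The Sema3e probe set is that gene's brightest through the retinoic acid arrays, since on the agonist arrays 2 other probe sets of the gene, which did not pass, had higher means. The median difference of the 42 genes was 0.0014, against -0.0059 over all genes. The groups did not overlap for 2 of the 42 genes, Sema3e and Plxna2, against 8.02% of all genes tested.

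**Figure D1:**
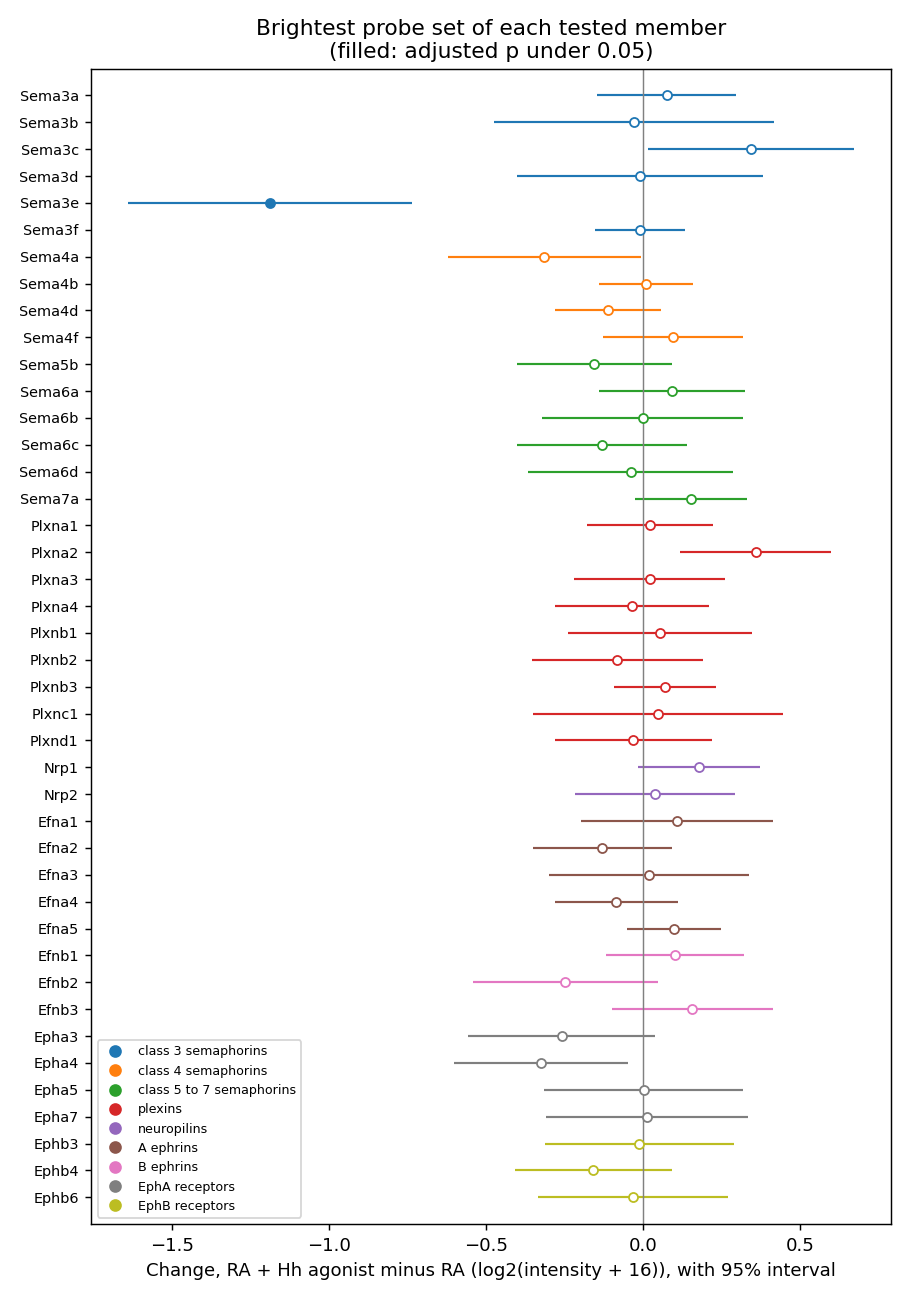
Difference between the agonist and the retinoic acid group on the log2(intensity + 16) scale for the brightest probe set of each of the 42 tested genes, coloured by family, with 95% intervals from the limma fit (n = 4 per group). Filled points passed an adjusted p of 0.05. Sema3e alone is filled and lies at -1.19, and the other 41 genes lie between -0.32 and 0.36.

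The DNA just before the start sites of the 3 called genes is shown for context, since the cells carry a constitutive Gli1 and the treatment acts on the pathway that ends in Gli factors. The 250 bases before each start are from RefSeq's GRCm38.p6 promoter table, which held 58 start sites for 44 of the 50 genes.
Sema3e promoter, GRCm38.p6 chr5:14025026-14025275, plus strand: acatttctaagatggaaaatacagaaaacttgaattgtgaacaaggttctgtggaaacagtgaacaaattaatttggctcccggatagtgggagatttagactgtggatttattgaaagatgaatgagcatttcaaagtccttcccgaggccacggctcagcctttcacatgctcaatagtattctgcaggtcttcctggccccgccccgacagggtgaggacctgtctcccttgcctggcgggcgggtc
Nrp1 promoter, GRCm38.p6 chr8:128358823-128359072, plus strand: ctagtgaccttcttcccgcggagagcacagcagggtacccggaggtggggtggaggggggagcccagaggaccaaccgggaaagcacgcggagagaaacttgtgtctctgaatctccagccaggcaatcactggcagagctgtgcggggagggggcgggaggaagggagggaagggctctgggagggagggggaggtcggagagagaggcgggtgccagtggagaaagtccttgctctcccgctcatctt
Plxna2 promoter, GRCm38.p6 chr1:194619579-194619828, plus strand: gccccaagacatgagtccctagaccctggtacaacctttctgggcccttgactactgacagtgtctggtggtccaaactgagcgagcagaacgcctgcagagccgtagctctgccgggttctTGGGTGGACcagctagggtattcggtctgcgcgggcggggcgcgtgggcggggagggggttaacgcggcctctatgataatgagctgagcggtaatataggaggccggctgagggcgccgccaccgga
Capitals mark the stretch that differs by at most 1 base from TGGGTGGTC, the 9-base motif bound by Gli factors, searched on both strands. In the Plxna2 promoter the stretch begins 128 bases before the start and carries T8A, counted from 1 at the motif's 5′ end, while those of Sema3e and Nrp1 held none. An exact match was found in 0 of the 58 member windows, against 0.225% of 32851 windows of the same length in the table. With at most 1 base different, 4 of 58 member windows matched, or 6.90%, against 5.79% of all windows, and a match is a description of the letters and not a binding site.

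Sema3e encodes a class 3 semaphorin that, unlike its relatives, binds Plexin-D1 directly. Probe set 1427673_a_at had intensities of 14.8, 19.4, 34.1 and 3.36 in agonist replicates 5 to 8, against 50.1, 59.6, 43.2 and 80.2 in retinoic acid replicates 1 to 4. The groups did not overlap. Agonist replicate 7 and retinoic acid replicate 3 came closest to each other, and agonist replicate 8 was far the lowest. The mean was 17.9 ± 12.7 with the agonist and 58.3 ± 16.1 with retinoic acid alone (SD, n = 4 each), a difference of -1.19 (SE 0.215, limma adjusted p = 0.00452) or 2.28-fold lower with the agonist after adding 16. Because the agonist values lie near the amount added before the logarithm, the size depends on it, at -1.95 with 1 added and -0.58 with 64 added.

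The other Sema3e probe sets did not show this difference. Probe set 1425906_a_at averaged 22.1 ± 5.36 with the agonist and 21.2 ± 9.29 with retinoic acid alone, with a 95% interval of the difference from -0.31 to 0.44. For 1442226_at the means were 18.7 ± 2.86 and 17.2 ± 2.82, and the interval ran from -0.21 to 0.35. The untested 1419717_at had 13.9 to 24.0 with the agonist and 8.41 to 15.5 with retinoic acid alone. All 3 were dim in both groups. Without an intensity trend in the variance model the called probe set missed the threshold (adjusted p = 0.0536). Averaged over all its probe sets, the untested one included, Sema3e differed by -0.20 (limma adjusted p = 0.580). Plxnd1, the receptor of Sema3e, had 57.5, 67.6, 73.9 and 68.1 with the agonist, against 58.4, 92.5, 59.7 and 66.6 with retinoic acid alone, and its difference of -0.03 had an interval from -0.28 to 0.22.

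Nrp1 encodes neuropilin-1, the co-receptor of Sema3a and also a receptor of vascular endothelial growth factor. Probe set 1448944_at had 122, 103, 119 and 92.6 in agonist replicates 5 to 8, against 51.3, 42.6, 58.8 and 45.6 in retinoic acid replicates 1 to 4. Every agonist array lay well above every retinoic acid array. The difference was 0.93 (SE 0.106, limma adjusted p = 3.06e-05), a 1.91-fold rise of intensity + 16. Without the added 16 the mean intensities were 109 ± 13.7 with the agonist and 49.6 ± 7.11 with retinoic acid alone (SD, n = 4 each).

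The brightest Nrp1 probe set, 1457198_at, did not pass. It had 92.6, 78.8, 81.0 and 96.8 with the agonist, against 81.9, 70.1, 74.4 and 73.8 with retinoic acid alone, and the groups overlapped at retinoic acid replicate 1. Its difference was 0.18, with an interval from -0.01 to 0.37 that ends below the interval of 1448944_at, 0.71 to 1.15 (limma adjusted p = 0.458). A dim probe set, 1418084_at, had 18.9, 25.4, 27.4 and 17.8 against 12.4, 10.6, 15.7 and 7.01, with a mean of 11.4 ± 3.62 with retinoic acid alone, under the filter level, so that it was tested only through the agonist arrays (0.49, adjusted p = 0.129). The untested 1448943_at had 7.10 to 10.5 with the agonist and 1.62 to 7.55 with retinoic acid alone. Of the tested Nrp1 probe sets 1 passed. Averaged over all its probe sets, the untested one included, Nrp1 differed by 0.46 and passed (limma adjusted p = 0.0141). Nrp2, the related receptor of Sema3f, had 35.5, 44.2, 31.7 and 43.7 with the agonist, against 45.1, 32.5, 40.5 and 31.2 with retinoic acid alone. Its 4 tested probe sets differed by 0.0052 to 0.19, none of them past the threshold.

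Plxna2 encodes a plexin of the A group, which signals for class 3 semaphorins with neuropilins and binds class 6 semaphorins directly. Probe set 1455037_at had 44.9, 49.6, 61.5 and 55.1 in agonist replicates 5 to 8, against 28.8, 26.2, 25.3 and 27.4 in retinoic acid replicates 1 to 4. The retinoic acid arrays lay close together and the agonist arrays all above them. Its difference was 0.68 (SE 0.108, limma adjusted p = 0.00129), a 1.60-fold rise of intensity + 16, with mean intensities of 52.8 ± 7.12 and 26.9 ± 1.53. Probe set 1453286_at had 49.9, 56.1, 64.4 and 46.1 with the agonist, against 29.6, 32.6, 32.7 and 33.7 with retinoic acid alone, and rose 1.45-fold after adding 16 (SE of the log2 difference 0.107, limma adjusted p = 0.0106).

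The brightest Plxna2 probe set, 1451753_at, had 52.7, 54.5, 66.5 and 49.6 with the agonist, against 43.0, 47.0, 31.2 and 39.0 with retinoic acid alone. Its groups did not overlap either, but the difference of 0.36 did not pass (adjusted p = 0.148, interval from 0.12 to 0.60). The fourth, 1429772_at, was too dim to be tested, with 1.33 to 19.4 against 3.06 to 14.3. All 3 tested Plxna2 probe sets therefore had positive differences, with 2 past the threshold. Averaged over all its probe sets, the untested one included, Plxna2 differed by 0.42 and did not pass (limma adjusted p = 0.0659). With 64 added before the logarithm the differences were smaller, at 0.36 for 1455037_at, 0.29 for 1453286_at and 0.61 for the called Nrp1 probe set.

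**Figure D2:**
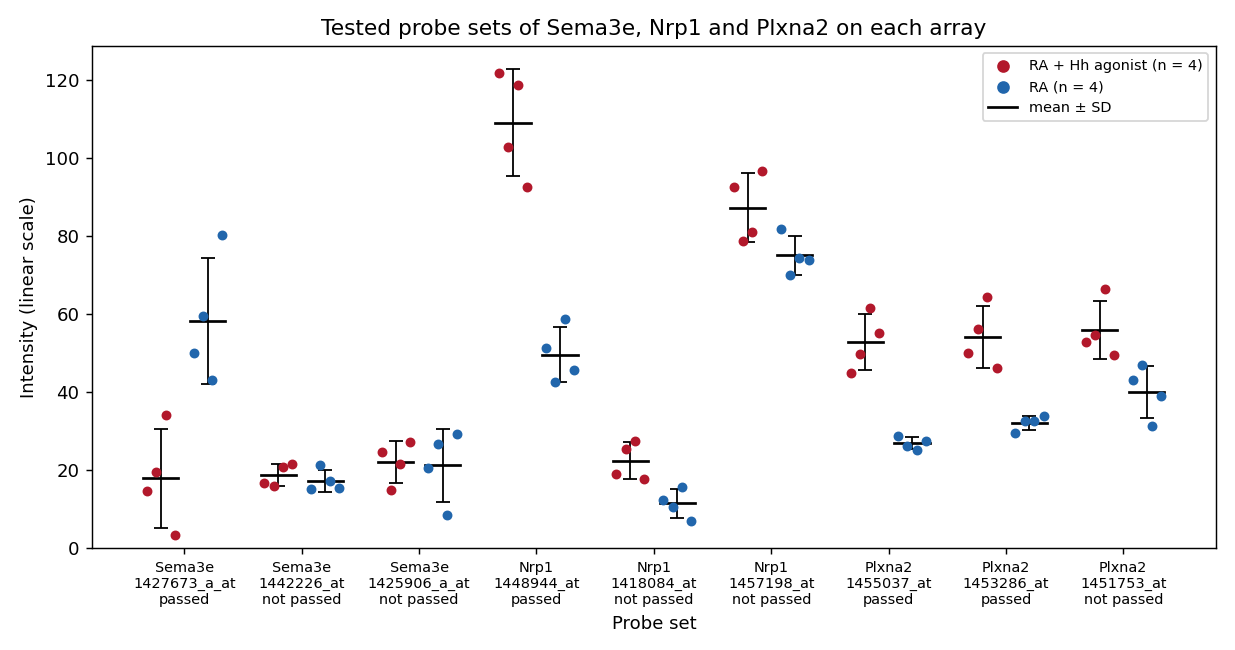
Intensity on a linear scale of each array for the 9 tested probe sets of Sema3e, Nrp1 and Plxna2, with the 4 agonist arrays left of the 4 retinoic acid arrays; lines and bars are mean ± SD. The groups do not overlap for 1 Sema3e, 2 Nrp1 and 3 Plxna2 probe sets, of which 4 passed; 1 of the 2 Nrp1 probe sets, 1418084_at, was tested only through the agonist arrays.

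The same 4 probe sets were compared within each hybridisation day. On the first day, with 1 array of each group on 1 fluidics station and no test, the log2 differences were -1.10 for Sema3e, 1.03 for Nrp1 and 0.44 and 0.53 for the Plxna2 probe sets 1455037_at and 1453286_at. On the second day, with 3 arrays of each group, they were -1.22 for Sema3e (limma adjusted p = 0.0270), 0.90 for Nrp1 (0.000776), 0.75 for 1455037_at (0.00342) and 0.54 for 1453286_at, which missed the threshold (0.0607). With the day as a block all 4 passed, with adjusted p of 0.00465, 2.83e-05, 0.00141 and 0.0101. The neuron markers moved with the same groups, and their part in the rise of Nrp1 and Plxna2 and the fall of Sema3e was not tested. In such whole-aggregate RNA, fewer cells of a type and less RNA per cell cannot be told apart.

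**Figure D3:**
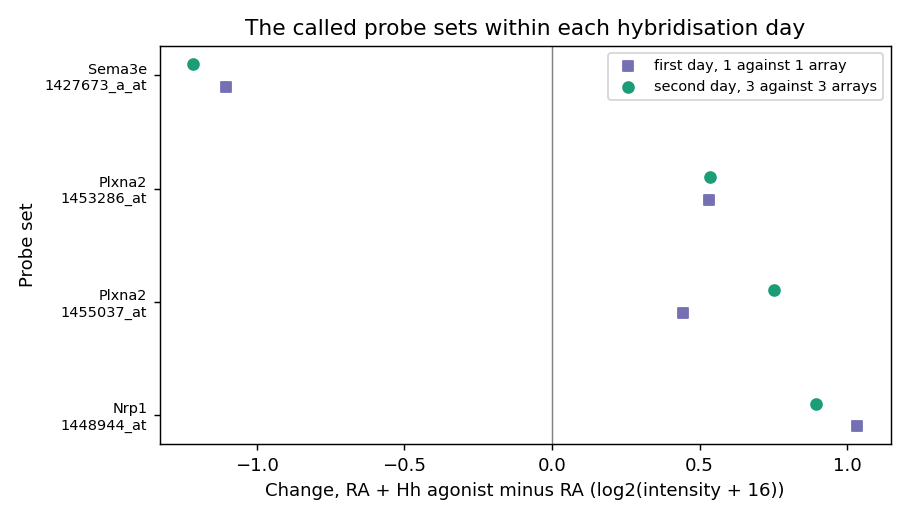
Log2 difference, agonist minus retinoic acid group, of the 4 called probe sets on the first hybridisation day (squares, 1 array of each group) and on the second (circles, 3 arrays of each group). Each of the 4 keeps its sign on both days, with Sema3e at -1.10 and -1.22 and Nrp1 at 1.03 and 0.90.

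Among the other class 3 semaphorins, all 5 were tested and none passed. Sema3c, which can attract as well as repel axons, had the largest of these differences, with 50.2, 52.8, 44.9 and 32.3 with the agonist, against 35.8, 33.6, 43.1 and 17.9 with retinoic acid alone. The groups overlapped (0.35, adjusted p = 0.378). Sema3a, the ligand of neuropilin-1 that first defined growth cone collapse, averaged 70.2 ± 8.28 and 65.8 ± 8.95, with an interval of the difference from -0.14 to 0.30. Sema3f, the ligand of neuropilin-2, had its most intense probe set at 297, 301, 343 and 293 with the agonist, against 312, 293, 328 and 306 with retinoic acid alone. Its interval from -0.15 to 0.14 is narrow, though the probe set's x suffix marks probes that can match other transcripts. Sema3b and Sema3d were dimmer, with 22.3 ± 10.5 against 22.9 ± 10.9 and 17.7 ± 4.81 against 18.7 ± 9.87, and the interval of the Sema3b difference ran from -0.47 to 0.42.

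The class 4 semaphorins are membrane-bound ligands, several of which act on B plexins and in immune cells. Of 6 genes 4 were tested and none passed. Sema4a had 34.8, 33.3, 23.4 and 41.6 with the agonist, against 58.8, 53.3, 37.3 and 33.0 with retinoic acid alone, and the groups overlapped (-0.31, adjusted p = 0.397). Sema4b had 183, 192, 184 and 207 with the agonist, against 192, 185, 196 and 186 with retinoic acid alone, and differed by 0.01 with an interval from -0.14 to 0.16. The other Sema4b probe set, 1427586_at, was too dim to be tested, with 4.33 ± 5.48 and 6.17 ± 4.97. Sema4d, the ligand of Plexin-B1, averaged 105 ± 6.48 and 114 ± 2.60, and Sema4f 85.2 ± 15.5 and 77.9 ± 3.68. Sema4c and Sema4g were below the filter level, with at most 5.64 and 14.4 on an agonist array and 7.40 and 20.5 on a retinoic acid array.

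Of the 7 class 5 to 7 semaphorins 6 were tested and none passed, and by their brightest probe sets the differences ran from -0.15 to 0.15 with 95% intervals within 0.5 of 0. Among their other tested probe sets Sema6c 1423454_a_at differed by 0.31 (interval from -0.05 to 0.66) and Sema6a 1421414_a_at by -0.06 (interval from -0.53 to 0.41). Sema7a, which is anchored in the membrane by a lipid and acts through integrins and Plexin-C1, had 166, 149, 142 and 133 with the agonist, against 138, 140, 121 and 126 with retinoic acid alone. The groups overlapped. The other Sema7a probe set, 1422040_at, was too dim to be tested, with 5.26 ± 2.63 and 5.62 ± 2.64. Sema5b, a transmembrane semaphorin with thrombospondin repeats, had 115, 103, 122 and 94.4 against 96.5, 112, 129 and 158, and the widest spread was among the retinoic acid arrays. The class 6 genes, whose products bind A plexins without a neuropilin, averaged 44.4 ± 5.95 and 40.6 ± 5.04 for Sema6a, 34.0 ± 11.6 and 33.4 ± 7.59 for Sema6b, 45.1 ± 7.59 and 51.3 ± 12.0 for Sema6c, and 21.4 ± 7.71 and 22.04 ± 4.83 for Sema6d. Sema5a was below the filter level, with 4.18 to 12.7 against 6.93 to 10.7.

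All 9 plexin genes were tested, and by their brightest probe sets none passed. Apart from Plxna2 their differences lay between -0.08 and 0.07. The other A plexins averaged 85.0 ± 2.90 with the agonist and 83.8 ± 11.4 with retinoic acid alone for Plxna1, 69.4 ± 10.4 and 68.3 ± 11.2 for Plxna3, and 40.2 ± 8.18 and 41.1 ± 2.68 for Plxna4. By these brightest probe sets their intervals lay within 0.28 of 0. A second Plxna4 probe set differed by 0.18, with an interval from -0.06 to 0.42. Plxnb3 probe set 1440813_s_at, bright on every array, had 259, 253, 250 and 213 against 247, 240, 212 and 227, and overlapping groups. The other Plxnb3 probe set, 1418750_at, was too dim to be tested, with 7.71 ± 7.39 and 5.42 ± 4.67. Plxnb1, the Sema4d receptor, averaged 22.4 ± 4.03 and 21.1 ± 5.70, Plxnb2 40.8 ± 11.4 and 43.3 ± 4.82, and Plxnc1 37.7 ± 11.8 and 36.9 ± 14.7.

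The ephrin ligands did not pass. The 5 A ephrins, which are lipid-anchored, differed by -0.13 to 0.11 by their brightest probe sets. Efna5, which guides axons in topographic maps, had 244, 225, 213 and 249 with the agonist, against 214, 208, 222 and 219 with retinoic acid alone, and an interval from -0.05 to 0.25. The other Efna5 probe set, 1421796_a_at, was too dim to be tested, with 5.19 ± 2.53 and 6.48 ± 2.72. Efna2 had 69.6, 53.2, 53.6 and 71.4 against 76.1, 65.3, 70.5 and 63.4, with overlapping groups (-0.13, adjusted p = 0.692). Its other tested probe set, 1444606_at, had 33.1 ± 10.7 and 44.9 ± 10.7 and differed by -0.32 without passing (interval from -0.65 to 0.01, adjusted p = 0.420). Efna1, Efna3 and Efna4 averaged 20.5 ± 6.76 against 17.4 ± 1.55, 32.8 ± 12.4 against 31.3 ± 5.36 and 62.1 ± 4.66 against 66.7 ± 4.99.

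The 3 transmembrane B ephrins had differences of -0.25 to 0.16 by their brightest probe sets. Efnb2, a ligand of EphB4 and EphA4 in hindbrain segments and vessels, had 37.3, 36.1, 17.8 and 30.8 with the agonist, against 41.9, 36.2, 43.4 and 32.4 with retinoic acid alone. Agonist replicate 7 was the lowest, and the groups overlapped (adjusted p = 0.523). Efnb1, mutated in a human craniofacial syndrome, had 57.3, 46.8, 51.1 and 44.2 with the agonist, against 51.5, 44.1, 39.8 and 45.8 with retinoic acid alone, and its groups overlapped. Its other 2 tested probe sets differed by -0.03 and -0.17, against 0.10 for this one. Efnb3, a midline repellent of the spinal cord, averaged 35.3 ± 5.03 and 30.04 ± 5.51.

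None of the Eph receptors passed, and 4 of 7 EphA and 3 of 5 EphB genes were bright enough to be tested. Epha4, which is found in alternating hindbrain segments and steers limb motor axons, had the largest of these differences. Its brightest probe set had 46.8, 40.5, 27.9 and 53.4 with the agonist, against 59.0, 56.0, 46.2 and 63.2 with retinoic acid alone, and the groups overlapped (-0.32, adjusted p = 0.308, interval from -0.60 to -0.05). A second probe set, 1421928_at, had 46.5 ± 10.3 and 49.98 ± 5.35 (-0.09). Epha3, a receptor of axial motor neurons, averaged 17.5 ± 5.91 and 23.7 ± 2.66, with an interval from -0.56 to 0.04. Epha5 and Epha7 differed by 0.0029 and 0.01 by their brightest probe sets, and a second Epha7 probe set by -0.24 (interval from -0.54 to 0.06).

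Among EphB genes Ephb4 had 28.6, 27.5, 40.3 and 38.6 with the agonist, against 34.3, 38.3, 40.03 and 44.3 with retinoic acid alone, and an interval from -0.41 to 0.09. Ephb3 averaged 23.0 ± 4.60 and 23.5 ± 6.57, and Ephb6, a receptor without kinase activity, 15.7 ± 3.62 and 16.4 ± 3.49. The intervals of all 3, each with 1 tested probe set, lay within 0.5 of 0. The genes below the filter level were Epha1, Epha2, Epha8 and Ephb1. Ephb1 had 2.18 to 8.88 with the agonist and 8.14 to 16.2 with retinoic acid alone, and tested without the filter it differed by -0.44 (limma adjusted p = 0.263). None of the 51 untested probe sets passed without the filter, and none exceeded an intensity of 29.96 on any array.

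A missed threshold does not show that these genes were alike in both groups. Of the 41 genes that did not pass by their brightest probe set, 21 had a positive and 20 a negative difference, and for 35 the 95% interval lay within 0.5 of 0. The widest bounds among all 41 were -0.62 for Sema4a and 0.67 for Sema3c. Of 19 genes with several tested probe sets, 12 had differences of both signs, while the probe sets of Nrp1, Nrp2, Plxna2, Plxnc1, Efna2, Epha3 and Epha4 had 1 sign each.

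Genes that carry these signals inside the cell were compared as well, from a list of 46 transducers and co-receptors that were not members. Of 42 tested, 3 rose and 1 fell by their brightest probe sets, against 1.31% of all genes higher and 0.870% lower, and their median difference was 0.074. All 4 came from the 23 tested semaphorin transducers, while none of the 19 tested ephrin and Eph transducers passed. The median difference was nonetheless 0.052 for the semaphorin transducers and 0.079 for the ephrin and Eph transducers. The collapsin response mediator proteins relay Sema3a signals to the microtubules of the growth cone. Crmp1 had 105, 106, 111 and 101 with the agonist, against 40.5, 49.7, 51.9 and 37.4 with retinoic acid alone, a 2.01-fold rise of intensity + 16 (limma adjusted p = 4.78e-06). Dpysl2, which encodes CRMP2, had 609, 578, 642 and 559 against 321, 350, 351 and 367, a 1.69-fold rise after adding 16 (adjusted p = 4.81e-07). In both genes the groups lay far apart relative to their spread, while a dimmer Dpysl2 probe set had 44.0 ± 13.3 and 55.0 ± 11.8 and did not pass (adjusted p = 0.538).

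Dpysl3, of the same family, went the other way by its brightest probe set, with 196, 203, 226 and 191 with the agonist, against 234, 280, 258 and 288 with retinoic acid alone, without overlap. It fell by 0.35 on the log2 scale (limma adjusted p = 0.0259), and leaving out any single array among retinoic acid replicates 2 and 4 and agonist replicates 5, 6 and 8 ended this call (adjusted p = 0.0716 to 0.112), on the second day alone (0.0545) and without an intensity trend (0.150). Another tested Dpysl3 probe set, 1415877_at, had 128 ± 11.4 and 148 ± 9.70, with overlapping groups, and did not pass (-0.19, limma adjusted p = 0.353). Its difference on the first day was 0.10. Dpysl4 had 53.6 ± 4.00 and 41.2 ± 2.58, without overlap and with an interval from 0.08 to 0.49, and did not pass (limma adjusted p = 0.202). Dpysl5 had 59.4 ± 4.32 and 62.5 ± 4.55, with overlapping groups, and did not pass. Nrcam, an adhesion molecule that joins neuropilin complexes, had 113, 112, 128 and 115 with the agonist, against 70.9, 56.4, 92.8 and 67.0 with retinoic acid alone, a 1.53-fold rise after adding 16 (limma adjusted p = 0.00408). Its other 2 tested probe sets had positive differences and did not pass. For 1430583_at the difference was 0.46 (interval from 0.14 to 0.79, limma adjusted p = 0.174). Its mean with retinoic acid alone, 14.3 ± 4.53, lay under the filter level, so that it was tested only through the agonist arrays. For 1443281_at the difference was 0.16 (interval from -0.15 to 0.47, limma adjusted p = 0.729). Averaged over their probe sets Dpysl2, Dpysl3 and Nrcam differed by 0.25, -0.25 and 0.31 and did not pass (limma adjusted p = 0.286, 0.134 and 0.163). The averages of Dpysl3 and Nrcam include a probe set too dim to be tested. Crmp1 has a single probe set, so averaging could not change it. L1cam, the related co-receptor of Sema3a, had 115 ± 8.68 and 91.9 ± 7.59 (adjusted p = 0.145). Neuron markers rose on the same arrays, and their part in the differences of these transducers, higher or lower, was not tested.

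**Figure D4:**
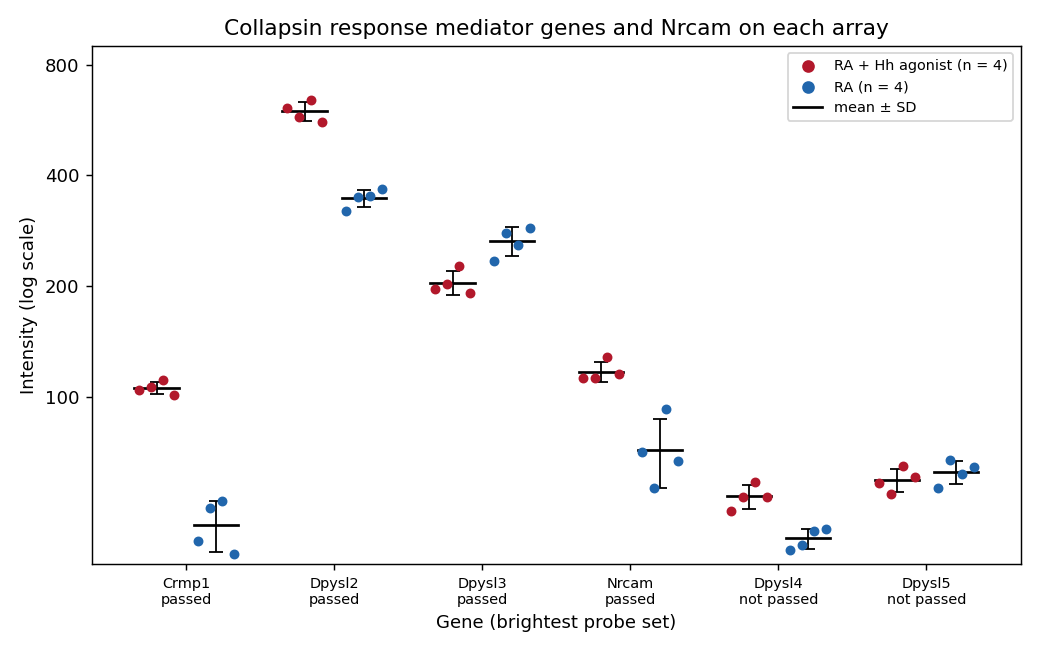
Intensity on a log scale of each array for the brightest probe sets of Crmp1, Dpysl2, Dpysl3, Nrcam, Dpysl4 and Dpysl5, with the 4 agonist arrays left of the 4 retinoic acid arrays; lines and bars are mean ± SD. Crmp1, Dpysl2 and Nrcam lie higher with the agonist, Dpysl3 lies lower at 204 ± 15.5 against 265 ± 24.1, and Dpysl4 and Dpysl5 did not pass.

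Of 3 further genes of these families outside the 50, Sema3g and Epha6 were below the filter level. Epha10 had 45.1 ± 16.3 with the agonist and 35.9 ± 13.4 with retinoic acid alone, and did not pass (adjusted p = 0.678).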

How the data were processed

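RNA of 8 samples was measured on 1-colour Affymetrix Mouse430_2 arrays. The authors deposited a linear intensity for each probe set on each array. Which summarisation, background correction and normalization they applied was not stated, and nothing was added to them. Hybridisation day, chip lot and fluidics station were read from the instrument records, per the file headers. Each day had its own chip lot, so that day and lot cannot be told apart.

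Log2(intensity + 16) was tested with limma 3.58.1 in R 4.3.3 (lmFit, eBayes with an intensity trend, two-sided, Benjamini-Hochberg adjustment, threshold 0.05). The 64 control probe sets were left out, as were 18015 probe sets with a mean under the 40th percentile, leaving 27022. All adjusted p-values are from this fit unless another setting is named. The model was also run on simulated independent normal values without day or station effects, and the outcome is not reported here. Tables and plots used Python 3.11.15 with pandas 2.3.3, numpy 2.4.6 and matplotlib 3.10.9.

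For each gene the brightest probe set naming it alone stood for the gene. Where a gene's probe sets were averaged, those too dim to be tested on their own were included. Genes named with values on every array were those with a called probe set and, in each family, the largest difference that did not pass and the brightest probe set; transducers were named where called, and any other gene named with values was chosen after these were seen. The members, lists, tests and alternatives were chosen with earlier results of these data known. The rule for promoters printed only those holding an exact Gli motif, and as none did, those of the called genes were chosen afterwards.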

Additional observations from a re-analysis of the deposited data

Results flagged for a closer look

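Within 110 groups of 4 arrays examined, 3 had 1 array far from the others by Dixon's criterion at the 95% level, and chance flags about 1 in 20 groups. The Sema3f probe set 1438947_x_at had 343 on agonist replicate 7, against 293 to 301 on the other agonist arrays. Efna4 had 69.0 on the same array, against 59.1 to 60.2 on the others. Sema6c had 56.4 on agonist replicate 5, against 39.98 to 42.1 on the other agonist arrays. None of these genes passed the comparison between the groups.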

How the results depend on the processing

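Tried instead were quantile normalization, median centring, 1 or 64 added, no filter or one at the 60th percentile, array weights, no intensity trend, the day as a block, the second day alone, averaging a gene's probe sets or taking any of them, and leaving out each array. The called probe sets of Nrp1 (0.61 to 1.12) and 1455037_at of Plxna2 (0.36 to 0.94) passed in all 18 alternatives that give a value for a probe set. Leaving out 1 array gave -1.40 to -0.95 for Sema3e, 0.47 to 0.59 for 1453286_at, 0.62 to 0.73 for 1455037_at and 0.88 to 1.00 for Nrp1, all past the threshold. The Sema3e difference of -1.19 missed it without an intensity trend (adjusted p = 0.0536), which left 0 lower genes and probe sets of these families, and 1453286_at missed it on the second day alone (0.54, adjusted p = 0.0607). With probe sets averaged per gene 1 gene of these families, Nrp1, was higher and 0 lower, and with any probe set 2, Nrp1 and Plxna2, were higher. Of the transducers 1 was higher and 0 lower with the mean of probe sets, the 1 being Crmp1, which has a single probe set and cannot change there, and 0 were lower without an intensity trend and on the second day alone. Leaving out 1 array gave 0 to 1 lower and 3 higher transducers. Over all tested probe sets, 308 higher and 198 lower became 197 and 67 without an intensity trend and 192 and 74 on the second day alone, and leaving out 1 array gave 214 to 299 higher and 84 to 316 lower. The lower count was 85 without retinoic acid replicate 2, 316 without replicate 3, 120 without replicate 4, and 125, 84 and 101 without agonist replicates 5, 6 and 8. The 44 uncalled probe sets followed passed in 0 of 778 values under other settings and changed sign in 76. No paired analysis was possible because the groups share no replicate numbers. Signal over background limits the dim probe sets, for which log2 differences can understate any change there may be.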
